A study of Mus musculus with 16 samples.

Results

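Dbx1, Dbx2, Msx3, Foxb1, Gsx1, Gsx2, Nkx6-1, Nkx6-2, Irx3 and Irx5 encode 10 transcription factors that divide the progenitors of the developing neural tube into dorsoventral domains. They were taken from the deposited expression table by gene name, 10 of its 27807 genes. They were selected on their normalised counts over genotype and stage in these same libraries, so that their levels are given here as a description. Calls of these genes past a threshold are given only as counts beside the share of all genes. Of the 10, 9 are homeobox genes, while Foxb1 encodes a forkhead protein.

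Polyadenylated RNA was sequenced from 16 libraries of mouse cells in 8 groups of 2. WT (Taf4a+/+) and Taf4a-/- embryonic stem cells (ESCs) were profiled in the pluripotent state and as embryoid bodies (EBs), which are floating aggregates of differentiating ESCs, on the way to glutamatergic neurons: just ahead of retinoic acid (RA) treatment (EB4), following 1 day of RA (EB5) and at a later time under RA (EB8). The Taf4a protein is part of TFIID, the general transcription factor that contains the TATA-binding protein and binds core promoters. The ESCs of both genotypes came from blastocysts of crossed heterozygous mice and were grown on inactivated embryonic fibroblast feeders, and Taf4a-/- libraries carry the null allele on both chromosomes. The study used a pair of independent lines of each genotype, but the labels do not say which line gave which library, so every SD, SE and p-value below measures the spread between these libraries only.

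In the neural tube, the floor plate at the ventral midline secretes the morphogen Shh, the roof plate at the dorsal midline secretes BMP and Wnt proteins, and RA from the adjacent somites acts on the tissue between them. Progenitors read these signals by switching on different homeobox and basic helix-loop-helix factors, many of which repress one another, and each resulting domain gives rise to its own classes of neuron. Nkx6-1 and Nkx6-2 mark ventral progenitors, Dbx1 and Dbx2 the intermediate ones, Irx3 and Irx5 a broad territory above the motor neuron progenitors, and Msx3, Gsx1 and Gsx2 dorsal progenitors. RA directs differentiating ESCs to neural fates, which is why these genes can be followed in EBs.

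Several libraries differed in ways that their group labels do not describe. Reads assigned to genes ran from 32631020 to 40711826 in the 4 ESC libraries and from 22442118 to 27685306 in the 12 EB libraries, so that stage and depth cannot be told apart between ESCs and EBs. The Taf4a count did not check the genotype labels, since it was 1591 to 1960 in WT and 1973 to 2400 normalised counts in Taf4a-/- libraries, and the null allele is described as lacking a pair of exons only. In WT ESC replicate 2 the Y-linked gene Ddx3y was listed at 0 beside 1237 in WT ESC replicate 1 and 174 to 572 in the WT EBs, and it was 0 to 35.9 in all Taf4a-/- libraries. Xist, the transcript of the inactive X chromosome, was at 929 to 3001 in the Taf4a-/- replicate 2 EBs, at 45.4 to 132 in the Taf4a-/- replicate 1 EBs and at 15.8 to 52.5 in WT EBs. The level of Ddx3y and the genotype thus cannot be told apart in EBs, while Xist was far higher in replicate 2 than in replicate 1 of the Taf4a-/- EBs. None of the 10 genes is on the X or Y chromosome. Genes of chromosome 8, where Irx3 and Irx5 lie, deviated from the mean of their stage by a median of 0.351 to 0.378 on the log2 scale in the 3 EB libraries of WT replicate 1, relative to all genes, and by -0.181 to 0.083 in the other 13 libraries. Values of Irx3 and Irx5 are therefore also given without WT replicate 1. Genes of chromosome 11, where none of the 10 genes lies, deviated by 0.170 to 0.267 in all Taf4a-/- replicate 1 libraries and by -0.112 to -0.042 in the others.

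Values below are normalised counts, that is reads of a gene divided by a size factor of its library, and 1 read was worth 0.71 to 1.28 of them. A fold is the ratio of the means of 2 groups, except where stated below, and a log2 change is the difference of the group means of log2(normalised count + 1) from a limma fit over all 16 libraries, which understates the change of low genes. The SE and p-value of a log2 change use the spread of a gene within all 8 groups. They do not measure the spread at the named stage alone. Where every library of a group held 3 reads or fewer, the fold is instead the ratio of the summed reads of the groups, each divided by the summed sizes of its libraries, and is given with its 95% counting interval, which covers counting error only. Such a fold differs slightly from the ratio of the printed means.

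The highest of these genes by EB8 was Dbx1, and its promoter is shown because it holds a TATA box motif, the sequence to which the TATA-binding protein carried by TFIID binds. RefSeq promoter sequences, which run from 250 bases before to 50 after the start of a gene, were matched for 8 of the 10 genes and placed by exact match on NCBI37, the build of the deposited data. The stretch below lies outside annotated exons on the minus strand at chr7:56892220-56892455 and ends 15 bases before the RefSeq start, and capitals mark its CCAAT and TATAAA motifs.
Dbx1: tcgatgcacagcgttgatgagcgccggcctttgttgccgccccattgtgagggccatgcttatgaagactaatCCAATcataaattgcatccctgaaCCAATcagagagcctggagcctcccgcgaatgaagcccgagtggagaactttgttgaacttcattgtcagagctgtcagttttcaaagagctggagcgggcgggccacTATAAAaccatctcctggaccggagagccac

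To set the Dbx1 motif beside other promoters, the 30 bases from 50 to 21 before the RefSeq start are printed for 2 further genes with the motif and for 3 without it, with TATAAA, or TTTATA for the opposite strand, in capitals. The coordinates are chr7:56892226-56892255 (minus strand) for Dbx1, chr5:75471576-75471605 (plus) for Gsx2, chr7:147235008-147235037 (minus) for Msx3, chr5:148000222-148000251 (plus) for Gsx1, chr7:146768717-146768746 (minus) for Nkx6-2 and chr8:94325574-94325603 (minus) for Irx3. The stretches of Gsx2 and Msx3 lie within an annotated exon, because the annotated starts of these genes are 137 and 52 bases upstream of the RefSeq starts.
Dbx1: gccacTATAAAaccatctcctggaccggag
Gsx2: cgcggtgggggcTATAAAatcctggagccg
Msx3: cgcatgaaagcggtgctaccttTTTATAgg
Gsx1: agtcctatttaagcggcgccgccggcgtct
Nkx6-2: cgcccaggccccgcggttatcagtgcgtcc
Irx3: ggagcggaagcggccaggggtggggtgagg

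TATAAA was present on either strand in 3 of the 8 promoters (Dbx1, Gsx2 and Msx3) and in 13.6% of all 32851 mouse promoters in the RefSeq table. In the Dbx1 promoter its first base was 45 bases before the RefSeq start and 31 bases before the annotated start of the gene. Within 40 to 20 bases before the RefSeq start on the strand of the gene, TATAAA was present only in the Gsx2 promoter, beside 1.99% of all promoters. CCAAT, the motif bound by the NF-Y factor, was found on either strand in 3 of the 8 (Dbx1, Msx3 and Nkx6-2) and in 37.4% of all. Neither AGGTCA, the half-site of RA receptors, nor TAATTA, a core homeodomain motif, was in any of the 8 windows, beside 16.3% and 5.29% of all promoters. The 8 promoters had 54.0 to 67.3% G and C, with a median of 58.8% beside 52.7% over all promoters, and their median ratio of observed to expected CpG was 0.769 beside 0.384. The RefSeq starts of Dbx2 and Nkx6-1 lie 1189 and 515 bases downstream of their annotated starts. All 250 bases before them are therefore within annotated exons, and the highest G and C share, 67.3%, is that of Nkx6-1. A motif match is a description of the sequence, and 8 promoters are too few to set these shares apart from those of all promoters.

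In WT cells these genes were low or absent at EB4, and all 9 that could be measured were higher at EB8 than at EB5. In ESCs they were low too, except for Gsx1 (240.3 and 7.97) and Nkx6-2 (193 and 19.9), whose ESC means were above those at EB8. The plot of normalised counts by library shows each of the 16 values. Between EB4 and EB5, after 1 day of RA, 5 of the 9 genes passed the threshold as higher (Dbx1, Msx3, Foxb1, Irx3 and Irx5), beside 2.59% of all genes tested. Between EB5 and EB8 both libraries at EB8 lay above both at EB5 for all 9 genes, beside 28.6% of all genes tested, and 2 (Msx3 and Irx5) passed the threshold as higher, beside 5.82%. From ESCs to EB4 1 gene, Gsx1, passed as lower, beside 7.57%. WT ESC replicate 2 differed from the WT EBs in Ddx3y (0) and in Xist (550 against 15.8 to 52.5). Stage and a possible difference of cell line therefore cannot be told apart in this step. The genes were chosen with these levels in view, so nothing is read from these counts.

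**Figure D1:**
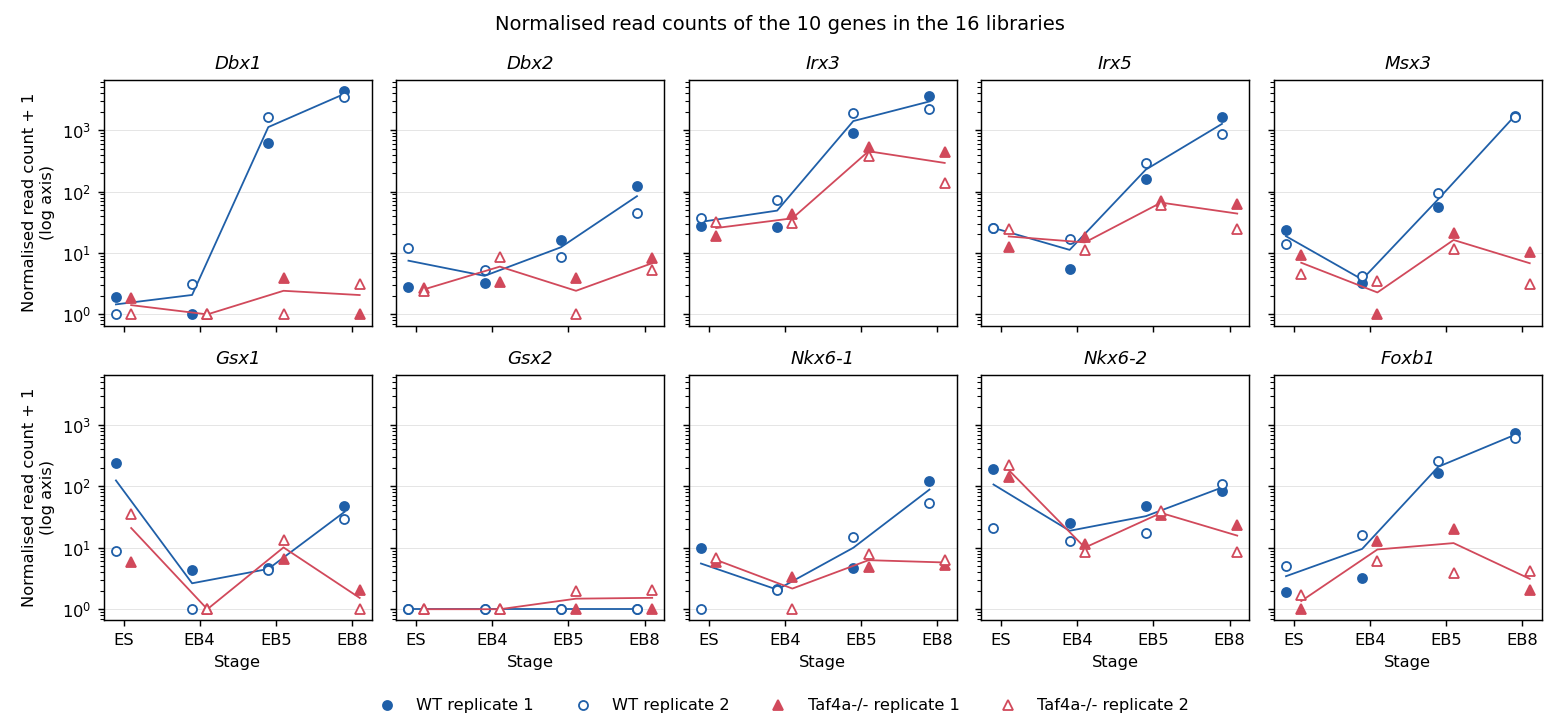
Normalised counts of the 10 genes in each of the 16 libraries, on a log axis with 1 added, by stage (ES, EB4, EB5, EB8), with WT libraries as blue circles, Taf4a-/- libraries as red triangles and lines joining the group means. At EB8 both WT libraries lie above both Taf4a-/- libraries for 9 of the 10 genes, and Gsx2 is at 0 in 14 of the 16 libraries.

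The genes differed in how far they had come by EB5 in WT cells. Expressed as a share of its WT EB8 mean, the WT EB5 mean was 47.9% for Irx3, 33.4% for Nkx6-2, 30.3% for Foxb1 and 28.7% for Dbx1. It was 17.9% for Irx5, 13.7% for Dbx2, 10.3% for Nkx6-1, 9.44% for Gsx1 and 4.41% for Msx3. These are shares of means of 2 libraries that were far apart at EB5, so no order among the genes is read from them.

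Per kilobase of exon, where levels can be set side by side between genes, the order at EB8 in WT cells was Dbx1 (mean 1867 normalised counts per kb), Irx3 (1252), Msx3 (701), Irx5 (528), Foxb1 (230.3), Nkx6-2 (49.8), Nkx6-1 (26.1), Dbx2 (24.0), Gsx1 (21.1) and Gsx2 (0). The libraries of Msx3 and Irx5 overlapped, as did those of Nkx6-1 and Dbx2 and those of Dbx2 and Gsx1, so that these neighbours did not differ beyond their spread, whereas the other neighbours were apart. The place of Gsx2 is uncertain, because a further annotated entry shares its bases and is not among the genes analysed. At EB5 in WT cells Irx3 led with 599.9 per kb, followed by Dbx1 with 536, Irx5 with 94.6, Foxb1 with 69.8 and Msx3 with 30.9, but the libraries of Irx3 and Dbx1 overlapped, as did those of Irx5 and Foxb1. In Taf4a-/- cells at EB8 the highest was Irx3 with 124 per kb, then Irx5 with 17.9, Nkx6-2 with 7.77 and Msx3 with 2.42, of which only Irx3 was apart from the next.

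**Figure D2:**
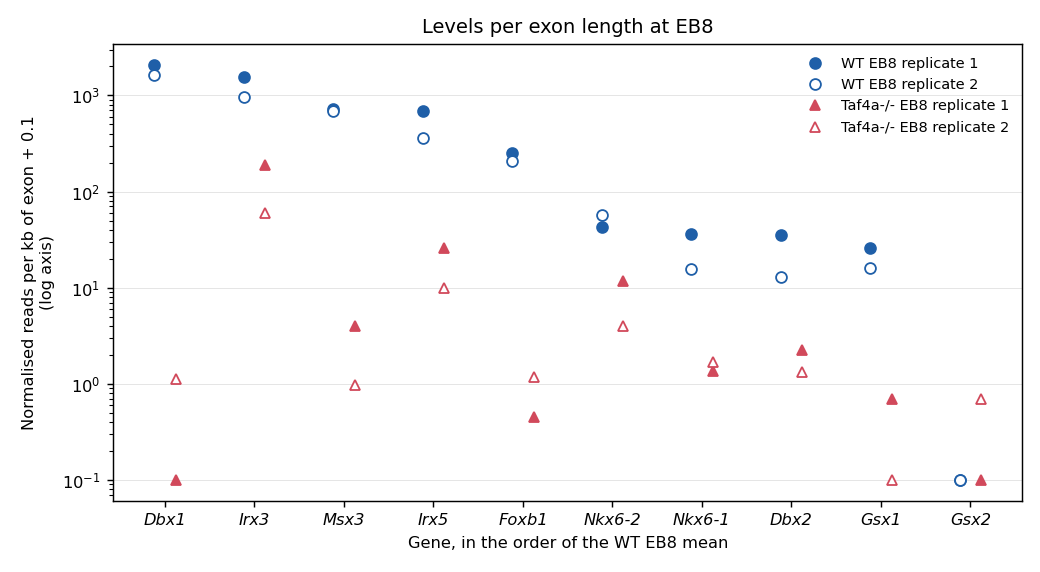
Normalised counts per kilobase of exon of the 10 genes at EB8, on a log axis with 0.1 added, each point being 1 library (WT, blue circles; Taf4a-/-, red triangles). Dbx1 and Irx3 lead in WT EB8, with means of 1867 and 1252 per kb, and Irx3 with 124 per kb is the highest in Taf4a-/- EB8.

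In Taf4a-/- EBs the levels of these genes were lower than in WT at EB8 and, for 6 of them, already at EB5. At EB8 both Taf4a-/- libraries lay below both WT libraries for all 9 genes tested, beside 33.5% of all genes, and all 9 passed the threshold as lower, beside 12.5%. At EB5 both lay below both WT libraries for 6 genes, beside 28.1%, and 2 (Dbx1 and Foxb1) passed the threshold as lower, beside 2.17%. At EB4 both were lower for 1 gene, beside 26.6%, and at the ESC stage for 4, beside 20.7%, and no member passed the threshold at these stages (0.0% of all genes were called lower in ESCs and 3.37% at EB4). The median log2 change of the 9 genes was -0.54 in ESCs, -0.26 at EB4, -1.73 at EB5 and -4.70 at EB8, where the median over all genes tested was between -0.03 and 0. Within Taf4a-/- cells 0 of the 9 passed between EB5 and EB8, beside 0.31% of all genes lower and 0.428% higher. For the difference between genotypes in a step, 0 of the 9 passed as lower from EB4 to EB5 (0.0% of all genes) and 1, Msx3, from EB5 to EB8 (0.682%), and nothing is read from these counts either. In these bulk samples, fewer cells of a type and less RNA per cell cannot be told apart.

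**Figure D3:**
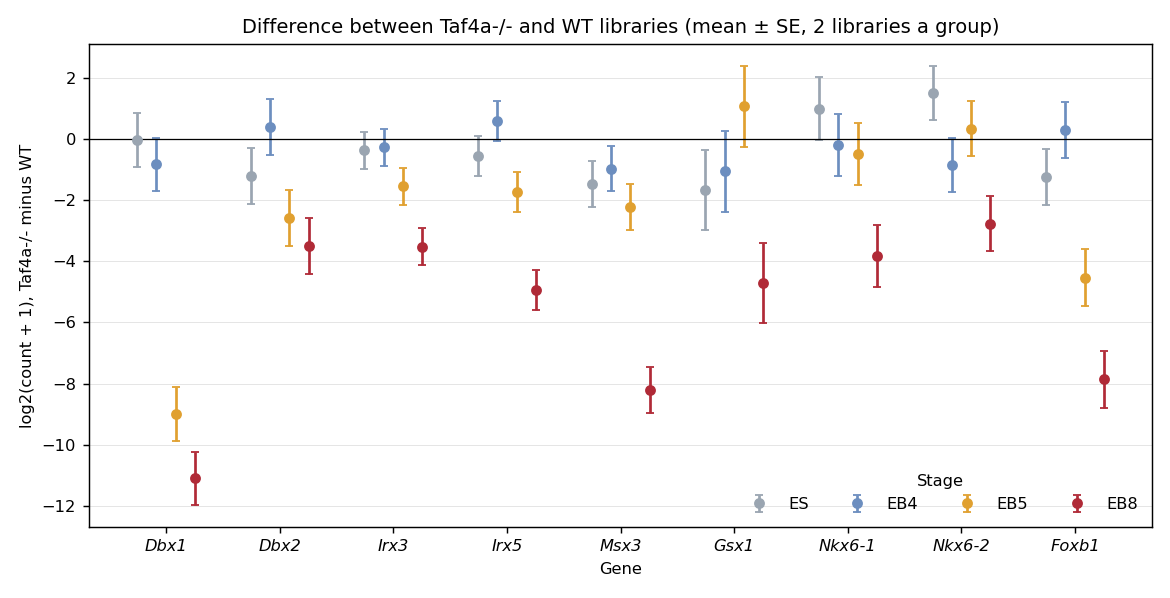
Log2 change in Taf4a-/- relative to WT (difference of the group means of log2(normalised count + 1), with its SE) of the 9 genes tested, at ES, EB4, EB5 and EB8. The changes lie between -1.66 and 1.50 in ESCs and between -11.10 and -2.76 at EB8.

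Dbx1 and Dbx2, homeobox genes of the intermediate progenitors, differ in their level but were both low in Taf4a-/- EBs. Dbx1 (ENSMUSG00000030507, chr7:56886869-56892219, minus strand) is needed for a class of commissural interneurons. In WT cells Dbx1 was listed at 0.91 and 0 in ESCs, 0 and 2.14 at EB4, 612 and 1631 at EB5 and 4360.1 and 3448 at EB8. The Taf4a-/- cells had 0.83 and 0, 0 and 0, 2.84 and 0, and 0 and 2.13 at the same stages. The WT libraries thus differed by more at EB5 than at EB8, while the Taf4a-/- libraries held 3 reads or fewer each throughout.

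By summed reads, Dbx1 in WT was 998-fold higher at EB5 than at EB4 (95% counting interval 276 to 8247), and its EB8 mean (3904 ± 645, SD, n = 2) was 3.48-fold above its EB5 mean (1121 ± 721). Relative to WT, Dbx1 in Taf4a-/- cells was by summed reads 752-fold lower at EB5 (interval 257 to 3651) and 3685-fold lower at EB8 (interval 1020 to 30430). The log2 changes were -8.99 and -11.10 (SE 0.87). Without any 1 of the 4 libraries at EB8, the change stayed between -11.92 and -10.27.

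Dbx2 (ENSMUSG00000045608, chr15:95453994-95486391, minus strand), which is found over a wider intermediate territory, was far lower than Dbx1. In WT cells its counts were 1.82 and 11.2 in ESCs, 2.19 and 4.29 at EB4, 15.1 and 7.69 at EB5 and 122 and 44.5 at EB8. Its Taf4a-/- counts were 1.66 and 1.43, 2.34 and 7.66, 2.84 and 0, and 7.39 and 4.26. The groups overlapped at EB4 and were apart at EB5 and at EB8, where the WT mean of 83.1 ± 54.7 was 14.3-fold above the Taf4a-/- mean of 5.82 ± 2.21 (n = 2 each) and the log2 change was -3.49 (SE 0.91).

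Irx3 had the highest count per kb of the 10 genes in Taf4a-/- cells at EB5 and at EB8. Irx3 and Irx5 are neighbouring Iroquois genes, whose products specify progenitors dorsal to those of motor neurons, and Irx3 opposes the motor neuron factor Olig2. Irx3 (ENSMUSG00000031734, chr8:94322428-94325553, minus strand) was found in WT cells at 26.4 and 35.9 in ESCs, 25.2 and 70.8 at EB4, 887 and 1926 at EB5 and 3619.8 and 2253 at EB8. Its Taf4a-/- counts were 18.3 and 30.7, 42.1 and 29.4, 524 and 381, and 444 and 139.5. Hence Irx3 was already present before RA, overlapped between genotypes in ESCs and at EB4, and was higher at EB5 than at EB4 in both genotypes.

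The Irx3 mean was 29.3-fold higher at EB5 than at EB4 in WT and 12.7-fold higher in Taf4a-/- cells, in which it was the 1 gene of the 9 past the threshold for this step (1.82% of all genes were called higher). From EB5 to EB8 the WT mean was 2.09-fold higher again, whereas the Taf4a-/- libraries of both stages overlapped. Taf4a-/- cells thus had 32.2% of the WT Irx3 mean at EB5 (453 ± 101 against 1407 ± 735) and 9.94% at EB8 (292 ± 215 against 2936 ± 966, n = 2 each). The log2 changes were -1.55 and -3.51 (SE 0.61), and -2.10 and -3.17 without WT replicate 1.

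Irx5 (ENSMUSG00000031737, chr8:94881695-94885351, plus strand) followed the same course at a lower level. Its WT counts were 24.6 and 24.7 in ESCs, 4.38 and 16.1 at EB4, 161 and 293 at EB5 and 1664 and 867 at EB8. Those of Taf4a-/- cells were 11.6 and 23.6, 17.5 and 10.2, 70.2 and 60.1, and 62.2 and 23.4. The WT libraries were above the Taf4a-/- ones in ESCs, at EB5 and at EB8 but overlapped with them at EB4.

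In WT cells the Irx5 mean was 22.2-fold higher at EB5 than at EB4 and 5.57-fold higher again at EB8, and in Taf4a-/- cells it was 4.70-fold higher at EB5 with no further difference beyond the spread at EB8. It was 3.49-fold lower in Taf4a-/- cells at EB5 and 29.5-fold lower at EB8, with log2 changes of -1.73 and -4.93 (SE 0.65). Leaving out WT replicate 1 gave -2.16 and -4.46.

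Msx3, Gsx1 and Gsx2 are genes of dorsal progenitors. Msx3 (ENSMUSG00000025469, chr7:147232056-147235039, minus strand) is the Msx gene whose expression is restricted to the dorsal neural tube. In WT cells it was listed at 22.8 and 12.8 in ESCs, 2.19 and 3.22 at EB4, 55.5 and 93.3 at EB5 and 1728 and 1649 at EB8. Taf4a-/- cells had 8.30 and 3.57, 0 and 2.55, 19.9 and 10.7, and 9.50 and 2.13. Both genotypes were therefore higher at EB5 than at EB4, after which the WT libraries were higher still and the Taf4a-/- libraries lower.

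Msx3 was 26.9-fold higher at EB5 than at EB4 in WT (interval 11.3 to 84.2) and 12.6-fold higher in Taf4a-/- cells (interval 3.21 to 108). From EB5 to EB8 it was 22.7-fold higher in WT and 2.63-fold lower in Taf4a-/- cells. The Taf4a-/- mean was 20.5% of the WT mean at EB5 (15.3 ± 6.54 against 74.4 ± 26.7) and 0.344% at EB8 (5.81 ± 5.21 against 1689 ± 56.6, n = 2 each), with log2 changes of -2.23 and -8.20 (SE 0.75).

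Gsx1 (ENSMUSG00000053129, chr5:148000272-148002523, plus strand) is found in dorsal progenitors of the spinal cord and in the ganglionic eminences of the forebrain. It was also detected in ESCs, where its count was 240.3 in WT replicate 1 but 7.97 in WT replicate 2, the WT library with Ddx3y at 0, and 4.98 and 35.0 in Taf4a-/- cells. Its WT counts were then 3.29 and 0 at EB4, 3.76 and 3.29 at EB5 and 46.2 and 28.6 at EB8. Those of Taf4a-/- EBs were 0 and 0, 5.69 and 12.6, and 1.06 and 0. Gsx1 was thus the 1 gene of the 9 for which both Taf4a-/- libraries lay above both WT libraries at EB5, beside 26.7% of all genes.

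The Gsx1 mean at EB5 was 2.59-fold higher in Taf4a-/- cells, and at EB8 it was 70.6-fold lower (interval 12.3 to 2828), at 0.53 ± 0.75 against 37.4 ± 12.5 (n = 2 each). The log2 change at EB8 was -4.70 (SE 1.32), the largest SE of the 9 genes. This SE also takes in the ESC libraries, at 240.3 and 7.97 in WT and 4.98 and 35.0 in Taf4a-/- cells. In ESCs the log2 change of -1.66 became -4.04 without WT replicate 2 and 0.71 without WT replicate 1, so that its sign rested on which WT library was kept.

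Gsx2 (ENSMUSG00000035946, chr5:75471489-75473918, plus strand), which patterns the lateral ganglionic eminence as well as dorsal spinal progenitors, had no counted reads in WT cells. It was listed at 0 in 14 libraries and at 0.97 and 1.07, or 1 read each, in Taf4a-/- replicate 2 at EB5 and EB8. If all reads of the gene were counted for this entry, a count of 0 allows up to 3 reads a library, or 2.14 to 3.83 normalised counts. A further annotated Gsx2 entry overlaps it over 2293 bases and is not among the genes analysed here, so how reads were divided between them is uncertain.

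Nkx6-1 and Nkx6-2 encode repressors of ventral progenitors that set the ventral limit of the Dbx genes and are used in motor neuron formation. Nkx6-1 (ENSMUSG00000035187, chr5:102087158-102094245, minus strand) was low in WT cells until EB8, with 9.10 and 0 in ESCs, 1.10 and 1.07 at EB4, 3.76 and 14.3 at EB5 and 123 and 52.9 at EB8. In the mutant it was listed at 4.98 and 5.72, 2.34 and 0, 3.79 and 6.79, and 4.22 and 5.33. The genotypes overlapped at the 3 earlier stages and were apart at EB8. The WT mean of 87.9 ± 49.4 at EB8 was 18.4-fold above the Taf4a-/- mean of 4.77 ± 0.78 (n = 2 each), with a log2 change of -3.83 (SE 1.02).

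Nkx6-2 (ENSMUSG00000041309, chr7:146765276-146768696, minus strand) was highest in ESCs rather than in RA-treated EBs in Taf4a-/- cells. Its WT counts were 193 and 19.9 in ESCs, 24.1 and 11.8 at EB4, 47.0 and 16.5 at EB5 and 81.9 and 108 at EB8. In Taf4a-/- cells they were 143 and 225, 10.5 and 7.66, 33.2 and 38.8, and 22.2 and 7.46. Nkx6-2 and Gsx1 thus shared the gap between the WT ESC replicates, with the lower value of both in replicate 2.

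From ESCs to EB4 Nkx6-2 was 20.2-fold lower in Taf4a-/- cells and was the 1 gene of the 9 past the threshold as lower for that step (0.992% of all genes), while in WT it was 5.93-fold lower with overlapping libraries. It was 1.13-fold higher in Taf4a-/- cells at EB5, with overlap, and 6.41-fold lower at EB8, at 14.8 ± 10.4 against 95.0 ± 18.4 (n = 2 each), with a log2 change of -2.76 (SE 0.89). The log2 change of 1.50 in ESCs became -0.11 without WT replicate 2.

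Foxb1 (ENSMUSG00000059246, chr9:69605517-69608747, minus strand) encodes a forkhead factor of the early neural tube and of the mammillary region of the hypothalamus. Its WT counts were 0.91 and 3.99 in ESCs, 2.19 and 15.0 at EB4, 163 and 254 at EB5 and 754 and 620.4 at EB8. The Taf4a-/- counts were 0 and 0.71, 11.7 and 5.10, 18.96 and 2.91, and 1.06 and 3.20. At EB4 the genotypes overlapped, at EB5 and EB8 they were apart, and the Taf4a-/- libraries of EB4, EB5 and EB8 overlapped one another or lay lower at the later stage.

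In WT cells Foxb1 was 24.2-fold higher at EB5 than at EB4 and 3.30-fold higher again at EB8. In Taf4a-/- cells it was 19.04-fold below WT at EB5 (10.9 ± 11.4 against 208 ± 64.3) and 324-fold below at EB8 (2.13 ± 1.51 against 687 ± 94.4, n = 2 each, interval 126 to 1192), with log2 changes of -4.53 and -7.87 (SE 0.92).

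The count of 9 genes past the threshold at EB8, which is a description of genes chosen on these values, changed when a library was left out. Dbx2 and Nkx6-1 dropped out without WT replicate 1 or without either Taf4a-/- library, and Gsx1 and Nkx6-2 whichever of the 4 was left out, so that 5 of the 9 were counted without WT replicate 1, 7 without WT replicate 2 and 5 without either Taf4a-/- library. At EB5 the count of 2 became 1 without either WT library, stayed 2 without Taf4a-/- replicate 1 and was 0 without Taf4a-/- replicate 2. With edgeR on the recovered reads, Gsx1 and Nkx6-2 were not counted at EB8. Dbx2 and Nkx6-1 were not counted at a pseudocount of 0.1, Gsx1 at a pseudocount of 5 and Nkx6-2 without a filter.

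Markers of other cell states fell in some lists and rose or did not pass in others. At EB8 the 5 neuronal markers (Tubb3, Dcx, Map2, Elavl3 and Stmn2) all fell in Taf4a-/- cells, with a summed level of 1535 to 1712 against 17232 to 23216 in WT, and 5 of 7 neural progenitor markers (Pax6, which is also in a list below, among them) fell, with 5209 to 5394.5 against 28276 to 30985. Of 7 pluripotency markers 6 rose, among them Pou5f1 and Nanog, with 24620 to 27777 against 1382 to 1766. None of the 5 fibroblast markers passed, with 866 to 3098 against 2007 to 2609. Of 8 mesoderm and heart markers 6 were tested and 0 passed, with 152 to 701 against 99.8 to 164, and Mesp1 was at 0 in both WT libraries. Of 6 endoderm and pancreas markers 3 were tested and 2 (Sox17 and Foxa1) fell, with 572 to 675 against 1979 to 2466. Of 3 neural crest markers Foxd3 fell and Sox10 rose, with 175 to 356 against 300.3 to 544. Their part in the lower levels of the 10 genes was not tested. At EB5 the summed pluripotency level was 36879 to 64699 in Taf4a-/- and 8383 to 12038 in WT libraries, with 3 of the 7 higher, and that of the neural progenitor markers was 5411 to 9122 against 17445 to 25573, with 2 of the 7 lower.

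The other genes of the dorsoventral system, 81 in the table in 5 lists, of which 73 were tested, gave 37 that fell and 1 that rose in Taf4a-/- cells at EB8, where 12.5% of all genes fell and 10.4% rose. Their median log2 change was -1.87. Without any 1 of the 4 libraries the 37 became fewer, and fewer of all genes passed too. At EB5 5 fell (Boc, Smo, Pax3, Pax6 and Foxa2) and 1 rose (Foxn4), beside 2.17% of all genes in each direction. At EB4 2 fell, beside 3.37%, and 2 rose, beside 2.75%, and in ESCs 0 passed with limma. The lists were put together with earlier results of these data known and are not independent evidence of a direction. The plot of the pathway lists shows the EB8 change of each gene.

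**Figure D4:**
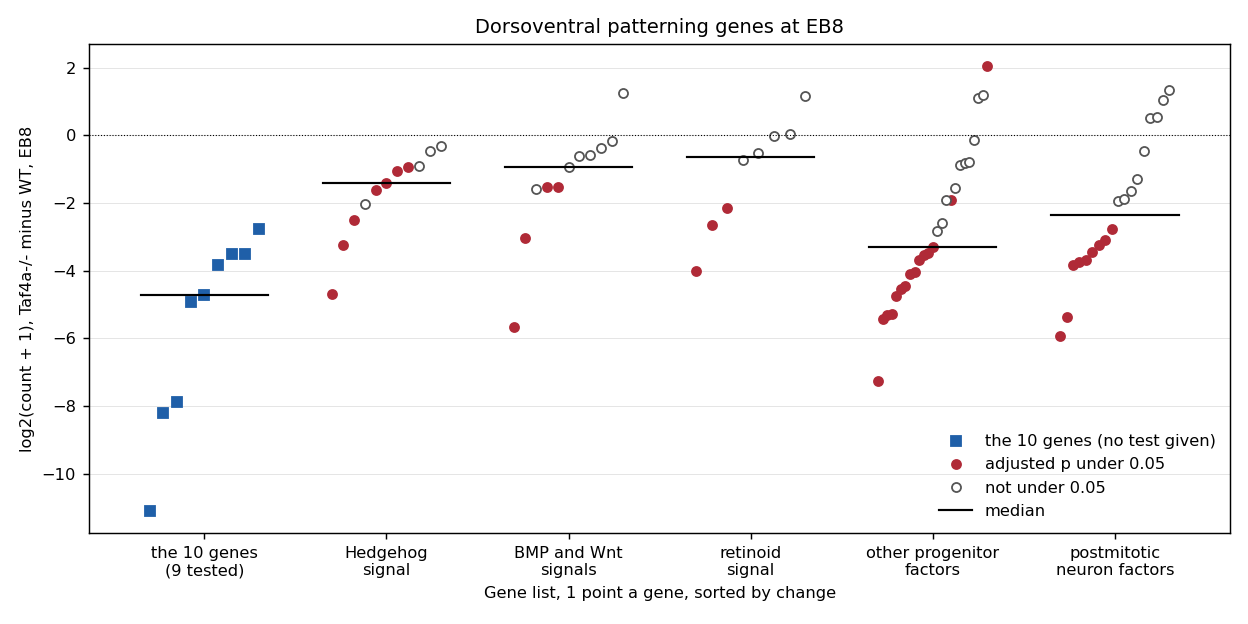
Log2 change in Taf4a-/- relative to WT at EB8 of the genes of 5 dorsoventral pathway lists and of the 10 genes described here (blue squares, no test given), with genes past the threshold filled in red, the others open, and black bars at the median of each list. Of 73 listed genes tested, 37 lie past the threshold below 0 and 1, Nkx2-9, above it.

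Among 11 genes of the Hedgehog pathway, which carries the ventral signal, 7 fell and 0 rose at EB8, with a median log2 change of -1.40. Shh, the ligand itself, was listed at 104 and 176 in WT and at 4.22 and 4.26 in Taf4a-/- EB8, and at 0 in ESCs and EB4 of both genotypes (log2 change -4.70, SE 0.70, limma adjusted p 0.000717). Boc, a co-receptor that promotes the response, was at 3057 and 3568 against 386 and 322 (-3.22, SE 0.40, limma adjusted p 0.000245). Hhip, which binds and restrains the ligand and is induced by the pathway, was at 601 and 695 against 79.1 and 163 (-2.50, SE 0.70, limma adjusted p 0.0224). The receptor Ptch1 (-0.92) and the signal transducer Smo (-1.40) fell less, with limma adjusted p 0.00355 and 0.000665.

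Of 12 genes of the dorsal BMP and Wnt signals 11 were tested, and 4 fell and 0 rose at EB8, with a median log2 change of -0.94. Wnt1, a roof plate ligand, was at 611 and 2125 in WT and 79.1 and 5.33 in Taf4a-/- cells (-5.66, SE 1.19, limma adjusted p 0.00531), with the largest spread among replicates of the genes named in this list. Nog, a secreted BMP antagonist, was at 104 and 98.5 against 28.5 and 4.26 (-3.04, SE 0.98, limma adjusted p 0.0414). The receptor Bmpr1b (-1.53, SE 0.47, limma adjusted p 0.0351) and the ligand Bmp7 (-1.52, limma adjusted p 0.0168) also fell.

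Of 8 retinoid genes 3 fell and 0 rose at EB8, with a median log2 change of -0.63. Crabp1, which binds RA in the cytoplasm, was at 5086 and 5116 in WT and 351 and 289.7 in Taf4a-/- cells (-3.99, SE 0.51, limma adjusted p 0.000285). Cyp26b1, an RA-degrading enzyme (-2.66, SE 0.78, limma adjusted p 0.0285), and the RA-induced receptor Rarb (-2.15, SE 0.53, limma adjusted p 0.0123) were the others.

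The other progenitor domain factors numbered 26, of which 25 were tested, and 14 fell and 1 rose at EB8, with a median log2 change of -3.29. The proneural factor Neurog2 (-7.26, SE 0.99, limma adjusted p 0.000452) and the Iroquois gene Irx6 (-5.31, SE 0.86, limma adjusted p 0.00119) were among those that changed most. Neurog2 was at 831 and 553 in WT and at 5.28 and 2.13 in Taf4a-/- cells. Pax3 (-4.76, limma adjusted p 0.00011) and Pax7 (-4.45, limma adjusted p 0.000564), which mark the dorsal neural tube, and Pax6 (-3.29, limma adjusted p 0.00166), found in most progenitors, also fell. Pax3 and Pax6 had already fallen at EB5, with log2 changes of -2.65 and -3.25 (limma adjusted p 0.0182 and 0.0133).

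Among relatives of the 10 genes, the Iroquois genes Irx1 (-3.67, SE 0.91, limma adjusted p 0.0129) and Irx2 (-1.91, SE 0.64, limma adjusted p 0.049) fell at EB8. The Msx genes Msx1 (-1.92, SE 0.78) and Msx2 (-0.81, SE 0.55) did not pass, with limma adjusted p 0.0946 and 0.312. Msx1 was at 508 and 1300 in WT and 385 and 118 in Taf4a-/- cells, and Msx2 at 271 and 383 against 289 and 116. The motor neuron progenitor factor Olig2 was at 173 and 289 in WT and 31.7 and 41.5 in Taf4a-/- EB8 but at 5.65 and 17.6 against 107 and 195 at EB5, and its EB8 change did not pass (-2.59, SE 1.88, limma adjusted p 0.349). This SE covers all 8 groups and not EB8 alone. Nkx2-2, of the most ventral progenitors, was low in both genotypes at EB8 and did not pass (-2.84, SE 1.15, limma adjusted p 0.0965).

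The opposite direction was taken by Nkx2-9, a ventral relative of Nkx2-2, at 21.0 and 11.6 in WT and 63.3 and 72.4 in Taf4a-/- EB8 (2.04, SE 0.56, limma adjusted p 0.0198). Foxn4, a factor of ventral interneuron progenitors, rose at EB5 (2.28, limma adjusted p 0.0132), at 821 and 1199 in Taf4a-/- against 231 and 178 in WT cells, and at EB8 its change was -0.87 (limma adjusted p 0.136).

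Among 24 genes of the postmitotic neurons that arise from these progenitors 18 were tested, and 9 fell and 0 rose at EB8, with a median log2 change of -2.35. The homeobox genes Lhx5 (961 and 1185 in WT, 47.5 and 5.33 in Taf4a-/- cells, -5.93, SE 1.24, limma adjusted p 0.00507) and Lbx1 (370 and 598 against 29.5 and 3.20, -5.38, SE 0.88, limma adjusted p 0.00121) and the paired box gene Pax8 (-3.84, SE 0.63, limma adjusted p 0.00132) changed most. Of 30 listed, neighbouring or overlapping genes past the threshold at EB8 that were followed, 15 kept the call without any 1 of the 4 libraries, among them Shh, Boc, Crabp1, Neurog2, Irx6, Pax3, Pax6, Pax7, Lbx1 and Pax8. Those of Hhip, Wnt1, Nog, Bmpr1b, Cyp26b1, Rarb, Irx1, Irx2, Nkx2-9 and Lhx5 were lost without at least 1 library. At EB5 the 6 calls rested on WT replicate 2 and on Taf4a-/- replicate 2. Fewer of all genes passed without any 1 library at either stage.

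Position on the chromosome was not used to choose the genes. Among the 3 nearest tested genes on each side, 56 in all, 10 fell and 6 rose in Taf4a-/- cells at EB8, where 12.5% of all genes fell and 10.4% rose, with a median log2 change of 0.03, and 1 fell at EB5. Of the 20 genes found with 1 on each side, 7 fell and 3 rose at EB8, and of the 90 with 5 on each side, 17 fell and 10 rose. Nav2, 21.4 kb from Dbx1, fell by 2.30 (SE 0.27, limma adjusted p 0.000187), and Nell2, 94.9 kb from Dbx2, fell by 4.05 (SE 0.60, limma adjusted p 0.000704). On the other hand, Agpat9 near Nkx6-1 rose by 3.23 (SE 0.76, limma adjusted p 0.00977), and Cds1 near it by 1.79 (SE 0.50, limma adjusted p 0.0215).

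Closer to Irx5, the transcript 4933436C20Rik, 1.68 kb away, was at 207 and 226 in WT and 47.5 and 61.8 in Taf4a-/- EB8 (-1.98, limma adjusted p 0.00657). Irx6, 312.8 kb from Irx5 in the same Iroquois cluster, was at 102 and 30.7 against 0 and 1.07. Fto, 130.1 kb from Irx3, fell by 0.66 (SE 0.18, limma adjusted p 0.0186). All 3 lie on chromosome 8, where WT replicate 1 stood apart, and without that library their log2 changes were -2.04, -4.46 and -0.54, and the calls of 4933436C20Rik and Irx6 held while that of Fto was lost (limma adjusted p 0.154). The call of 4933436C20Rik was lost without Taf4a-/- replicate 1 (limma adjusted p 0.0509).

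Noncoding transcripts on the opposite strand overlap 2 of the genes and moved with them. B230323A14Rik, a long intergenic noncoding RNA that shares 2201 bases with Foxb1, was at 132 and 113 in WT and 0 and 0 in Taf4a-/- EB8 (-6.95, SE 0.95, limma adjusted p 0.000447). D230002A01Rik, which shares 1240 bases with Irx3, was at 210.0 and 85.8 against 11.6 and 14.9 (-3.26, SE 0.59, limma adjusted p 0.00234). The library kit does not mark strand, so that within the shared bases reads of a gene and of its opposite-strand partner cannot be told apart. Inpp5a shares 276 bases with Nkx6-2 and did not pass (0.39, limma adjusted p 0.0907).

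Across the 16 libraries the courses of the 9 genes other than Gsx2 were compared by Pearson correlation of log2(normalised count + 1), given as a description, since the libraries share genotype and stage. Dbx1 and Foxb1 (r = 0.938), Irx3 and Irx5 (0.932) and Msx3 and Irx5 (0.922) were the pairs most alike, and Gsx1 and Nkx6-2, both of which were also found in ESCs, reached 0.864. The least alike were Foxb1 and Nkx6-2 (-0.00). Outside the list, the genes most like each were Lmo3 for Dbx1 (0.979), Tm2d2 for Dbx2 (0.896), B3gat1 for Msx3 (0.974), Cacna1c for Foxb1 (0.960), Cplx1 for Gsx1 (0.814), Ubap1 for Nkx6-1 (0.928), Ppp2r5b for Nkx6-2 (0.843), Tmem132e for Irx3 (0.968) and 6720416L17Rik for Irx5 (0.943). Wnt1 was the third most like Irx3 (0.967) and Pax3 the third most like Irx5 (0.941).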

How the data were processed

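RNA-seq was analysed for 16 libraries (8 groups of 2; genotype, stage and replicate number from the labels). As the labels and the paper's methods state, the authors made poly-A TruSeq v2 libraries, aligned single-end reads to mm9 with TopHat2 2.0.10, counted them with HTSeq 0.5.4p3 and normalised them with DESeq2 1.0.19; the annotation release and strand setting are not given in the sources used here. In the deposited table each value is a normalised signal, made by dividing the reads of a gene by its library's size factor. In each library 100% of values were whole multiples of 1 step (tolerance 0.01 reads), which gave back whole reads and the depth, 22442118 to 40711826 reads in genes. Counting intervals and the limit of 3 reads for a count of 0 are 95% exact and cover counting error only.

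Log2(normalised count + 1) was fitted with limma 3.58.1 (R 4.3.3), with 1 mean for each group and a trended prior (8 residual and 4.27 prior degrees of freedom), over 16124 genes with a mean of at least 10, and adjusted p-values are Benjamini-Hochberg with a threshold of 0.05. Each comparison of Taf4a-/- (KO) with WT within a stage, each step of stage within a genotype and the difference between genotypes in each step came from this fit. The scripts were tested on simulated data. edgeR 4.0.16 and DESeq2 1.42.0 on the recovered reads, other pseudocounts (0.1, 5), filters, scalings, blocks of the replicate number and each library left out were alternatives; on the recovered reads, edgeR called 811, 603 and 3546 genes at EB4, EB5 and EB8, where limma called 986, 700 and 3697.

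The 10 genes and all lists were chosen with earlier results of these data known. From the pathway lists, the genes past the threshold at EB5 or EB8 could be named, with values for the 3 per list with the largest change at EB8, any in the opposite direction and chosen relatives; 1 gene that this rule names is not reported here. Gsx2 did not reach the filter. Promoters came from RefSeq (table build GRCm38.p6, whose coordinates were not used), in Python 3.11.15.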

Additional observations from a re-analysis of the deposited data

Results flagged for a closer look

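For Msx3, Gsx1 and Nkx6-2 both EB8 libraries lay above both EB5 libraries in WT and below both in Taf4a-/- cells. Libraries of different stages are not matched. The change from EB5 to EB8 in Taf4a-/- cells minus that in WT was -5.98 on the log2 scale for Msx3, -5.78 for Gsx1 and -3.11 for Nkx6-2. The share of all genes with such a pattern was not computed, and these genes were chosen with the values in view. Nothing is therefore read from their number. Of the 3 differences, only that of Msx3 passed the threshold as lower, beside 0.682% of all genes.

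In 5 pathway genes the change from EB5 to EB8 differed between genotypes by the interaction term of the limma fit. The difference was -5.52 for Shh (limma adjusted p 0.0265), -1.60 for Ptch1 (limma adjusted p 0.016), -3.15 for Foxn4 (limma adjusted p 0.0257), -7.89 for Neurog2 (limma adjusted p 0.0258) and -6.36 for Lbx1 (limma adjusted p 0.0373). Shh was at 0.94 and 5.49 in WT EB5 and 4.74 and 5.81 in Taf4a-/- EB5, so that the genotypes overlapped there before they came apart at EB8. Ptch1 was at 5080 and 3754 in WT and 6926 and 7065 in Taf4a-/- cells at EB5, and at 6708 and 6629 against 3741 and 3297 at EB8, so that the order of the genotypes was exchanged between the stages.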

How the results depend on the processing

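At EB8, 9 of the 10 genes were lower in Taf4a-/- cells under limma, with 5 to 7 when 1 library was left out, and no result of those recomputed took the opposite sign while past the threshold. Fewer than 9 were also counted at EB8 at a pseudocount of 0.1 or 5, without a filter and with edgeR. Counts that moved by over 1.5 times are grouped here, and the cause was not tested unless the alternative itself uses fewer libraries or another set of genes. In ESCs limma called 0 of all genes (1846 at an unadjusted p under 0.05), edgeR 0 (1975 unadjusted) and DESeq2 476 (2246 unadjusted), with 8 at a pseudocount of 0.1, 16 at 5, 1 without a filter, 16 with a mean of at least 50 and 19 with upper-quartile rescaling. Of the pathway genes in ESCs, DESeq2 called 3 lower and 1 higher, where limma called 0.

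At EB4 all genes called went from 986 to 609 without a filter, 0 with only the compared groups and 2077 with DESeq2. Pathway genes lower at EB4 went from 2 to 0 with only the compared groups and 9 with DESeq2, and those higher from 2 to 1 without a filter, 0 with only the compared groups and 5 with DESeq2. At EB5 all genes called went from 700 to 447 without a filter, 72 with only the compared groups and 1719 with DESeq2. The 2 of the 10 genes lower at EB5 became 1 at a pseudocount of 0.1, 1 with only the compared groups and 5 with DESeq2. Pathway genes lower at EB5 went from 5 to 8 at a pseudocount of 5, 1 with only the compared groups and 14 with DESeq2, and those higher from 1 to 2 at a pseudocount of 0.1, 2 with a mean of at least 50 and 5 with DESeq2. At EB8 pathway genes higher went from 1 to 2 at a pseudocount of 5, 2 with a mean of at least 50, 3 with upper-quartile rescaling, 4 with quantile normalisation and 3 with DESeq2.

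For the steps of stage, the 1 of the 10 genes lower from ESCs to EB4 in WT (Gsx1; 7.57% of all genes) became 0 without a filter, with a mean of at least 50, with quantile normalisation and with only the compared groups, 2 with edgeR and 3 with DESeq2. The 5 higher from EB4 to EB5 in WT became 3 at a pseudocount of 0.1 and 2 with only the compared groups, and the 2 higher from EB5 to EB8 became 5 at a pseudocount of 5, 1 without a filter, 4 with only the compared groups and 5 with DESeq2. In Taf4a-/- cells the 1 lower from ESCs to EB4 became 0 without a filter and with only the compared groups, and the 1 higher from EB4 to EB5 became 2 with upper-quartile rescaling and 3 with DESeq2. For the difference between genotypes, 0 lower from EB4 to EB5 became 1 at a pseudocount of 5, and 1 lower from EB5 to EB8 became 0 at a pseudocount of 0.1 and 2 with DESeq2. Over all genes, in either direction, limma called 1683 from EB5 to EB8 in WT and DESeq2 2511. From EB4 to EB5 in Taf4a-/- cells limma called 405 and DESeq2 1017. From ESCs to EB4 in WT limma called 2668, edgeR 2647 and DESeq2 3911. Counts of all genes under the other settings are not given for these steps, so nothing is read from how the counts moved. With 5 neighbours on each side (90 genes) in place of 3 (56 genes), those lower went from 0 to 1 at EB4, 1 to 4 at EB5 and 10 to 17 at EB8 and those higher from 6 to 10 at EB8; with 1 on each side (20 genes), those higher went from 2 to 1 at EB4 and 6 to 3 at EB8.

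Deviations of same-numbered WT and Taf4a-/- libraries correlated at 0.335 in ESCs but -0.058 at EB4, -0.209 at EB5 and -0.133 at EB8, and the labels tie no number to a line or batch, so the replicate numbers were not taken as pairs between genotypes. Within a genotype, same-numbered libraries of different stages correlated at 0.523 to 0.605 among WT EBs, -0.179 to -0.048 between WT ESCs and EBs and 0.233 to 0.422 in Taf4a-/- cells, with 2 libraries a group; the steps of stage were fitted without this block. A replicate block gave 18 of all genes in ESCs and 2 pathway genes higher at EB5 and moved no other of these counts by over 1.5 times. A block with the Taf4a-/- numbers exchanged, chosen after seeing the data, gave 14 of all genes in ESCs, 8 pathway genes lower at EB4, 10 lower and 2 higher at EB5 and 3 higher at EB8. A block of the number within each genotype, also chosen after seeing the data, gave 66 of all genes in ESCs, 1985 at EB4 and 1559 at EB5, 9 pathway genes lower and 7 higher at EB4, 11 lower and 3 higher at EB5 and 4 higher at EB8, and 2 of the 10 genes higher from EB4 to EB5 in Taf4a-/- cells, and moved no other count of the 10 genes in a step of stage or in its difference between genotypes by over 1.5 times.

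Leaving out 1 library, whose partner is then assumed to vary like the other groups, gave 0 to 121 of all genes in ESCs, 0 to 753 at EB4, 0 to 525 at EB5 and 1907 to 2408 at EB8. Pathway genes lower were 0 to 1 in ESCs, 0 to 3 at EB4, 0 to 9 at EB5 and 20 to 28 at EB8, and those higher 0 to 5 at EB4, 0 to 2 at EB5 and 0 to 1 at EB8. Of the 10 genes, 0 to 2 were lower at EB5 and 5 to 7 at EB8, 2 to 3 were higher from EB4 to EB5 and 0 to 1 from EB5 to EB8 in WT, 0 to 1 were lower from ESCs to EB4 in WT, and 0 passed from ESCs to EB4 or EB4 to EB5 in Taf4a-/- cells. With 2 libraries a group, and 3 reads or fewer of Dbx1 in each Taf4a-/- library, the size of the largest folds is limited by counting.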

Other observations

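Before RA, at EB4, 2 of the 73 tested genes of the dorsoventral lists were called lower in Taf4a-/- cells and 2 higher. Of all genes, 3.37% were called lower and 2.75% higher, so nothing is read from these counts. None of the 10 progenitor genes passed. The Hedgehog transducer Smo was at 4098 and 4891 in WT and 1747 and 1320 in Taf4a-/- EB4 (log2 change -1.56, SE 0.21, limma adjusted p 0.00465), and the co-receptor Boc at 141 and 137 against 40.9 and 37.01 (-1.81, SE 0.40, limma adjusted p 0.0241). Aldh1a2, an enzyme that makes RA, was at 4.38 and 10.7 in WT and 57.2 and 94.4 in Taf4a-/- EB4 (3.23, SE 0.61, limma adjusted p 0.0143), and Foxn4 at 70.1 and 62.2 against 293 and 147 (1.64, SE 0.40, limma adjusted p 0.0341). At EB8 Aldh1a2 was at 275 and 212 in WT and 186 and 338 in Taf4a-/- cells, where the genotypes overlapped. The 4 calls at EB4 rested on Taf4a-/- replicate 2, without which fewer of all genes passed too. They were also lost in a fit of the compared groups only, where 0 of all genes passed.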
